A study of Homo sapiens with 4 samples.

Results

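The cytoplasmic translation initiation factors (eIFs), the elongation factors (eEFs) and the cytoplasmic poly(A) binding proteins (PABPCs) were examined in HCCLM3, an established human hepatoma cell line. Members were every gene whose symbol began with EIF1 to EIF6, with EEF1 or EEF2, or with PABPC and a digit, leaving out the EIF2AK kinases. This rule on names found 62 of 13036 genes and 303 of 38510 annotated transcripts. It also took in genes that are no factors themselves, namely methyltransferases of elongation factors, the kinase EEF2K and EIF3J-AS1, an antisense RNA. RNA was sequenced from 4 libraries. The 2 shCtrl libraries came from cells given a control short hairpin RNA, and the 2 shKIAA1429 libraries from cells given a hairpin against KIAA1429. KIAA1429, listed under its current symbol VIRMA, belongs to the methyltransferase that places N6-methyladenosine (m6A) on RNA. All libraries share the parental line, the labels name 1 hairpin per group, and whether the infected cells were a pool or a clone is not given in the sources used here. Nothing in the labels says that the replicates came from separate cultures, so p-values measure only the spread between these samples, which may be technical.

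Translation starts when eIF2 brings the initiator tRNA to the small ribosomal subunit, with eIF3 as the scaffold and eIF1 and eIF1A guarding start codon choice. The cap-binding eIF4F complex, made of eIF4E, eIF4G and the helicase eIF4A, recruits the mRNA, and PABPC joins its poly(A) tail to eIF4G. eEF1A then delivers aminoacyl tRNA to the ribosome, and eEF2 moves the ribosome along by a codon. Many of these mRNAs carry a 5′ terminal oligopyrimidine (TOP) start, through which their own translation answers to mTOR.

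TOP starts are shown first, since EEF2 and EEF1A1, the most abundant members, both had one. The first 20 bases of each transcript were taken from RefSeq promoters (GRCh38.p14), with the first 6 bases in capitals. EEF1A1 started at chr6:73521013-73521032 on the minus strand, EEF2 at chr19:3985444-3985463 on the minus strand, and EEF1B2 at chr2:206159895-206159914 on the plus strand. Another start of EEF1B2, at chr2:206159609-206159628, did not meet the definition and is not shown. EIF4B started at chr12:53006456-53006475 and EIF3F at chr11:7987337-7987356, both on the plus strand. EEF1G, at chr11:62573872-62573891 on the minus strand, had a shorter run behind an A and did not meet the definition.
EEF1A1: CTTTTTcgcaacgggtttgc
EEF2: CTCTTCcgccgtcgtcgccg
EEF1B2: CCTTTTtcctctcttcagcg
EIF4B: CTTTTGcgttctctttccct
EIF3F: CTTCTTtctcgacaagatgg
EEF1G: ACTTTGcggcagcgccgaga
A start was counted as TOP-like when a C within 2 bases of the annotated start was followed by 4 bases that were each C or T, on the strand of the gene. It was found in 10.5% of the 35116 promoters of the table and in 26.2% of the 61 promoters of members, which belonged to 16 of the 47 member genes matched there.

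Exon junctions that set transcripts of a gene apart are shown next, because the largest differences between the groups lay in transcripts and not in gene sums. No transcript passed both thresholds, and transcript shares also differed between the replicates of each group. Each run holds the last 15 bases of the upstream exon in lower case and the first 15 of the downstream exon in capitals, read from GRCh37 with the GENCODE 44 annotation lifted to it. EIF3D-201 and EIF3D-203 joined different first exons to the same second exon, across chr22:36922178-36925123 and chr22:36922178-36924839 on the minus strand. EIF3D-206 shared the first exon of EIF3D-201 and spliced it to an exon of its own across chr22:36922952-36925123.
EIF3D-201: ccgaggccattgcagATTTTGGAAGATGGC
EIF3D-203: ggttaagacggagggATTTTGGAAGATGGC
EIF3D-206: ccgaggccattgcagATGGAAAAGACTAAG
The transcripts of EIF4ENIF1 likewise differed in the first exon, spliced across chr22:31884731-31885680 and chr22:31884731-31885377 on the minus strand.
EIF4ENIF1-201: cggcggaggcaccgaGTGCAGAGCATTGTA
EIF4ENIF1-206: gccggccgcccctcaGTGCAGAGCATTGTA
EIF2A-214 left out an exon within the coding sequence, across chr3:150270212-150280329 on the plus strand. EIF4G1-224 held a first junction of its own ahead of the coding sequence, across chr3:184037031-184037477 on the plus strand. PABPC4-204 held a coding junction of its own across chr1:40029413-40030143 on the minus strand.
EIF2A-214: cacagtgtttccaagAGTAAATATTATCAG
EIF4G1-224: gttaaatggaacaggCTGGCGCCTACTATC
PABPC4-204: atctggctccaactgGCGTTCCCACAGCTG

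The values are FPKM, fragments mapped to a transcript divided by its length and by the total mapped, as the authors deposited them per transcript. Read depth is unknown, and the precision of single values cannot be given. FPKM summed to between 370253.5 and 390224.4 per library, and the members took between 1.520% and 1.646% of it. VIRMA was at 9.37 and 14.1 FPKM in shCtrl against 6.90 and 8.52 FPKM in shKIAA1429, with a log2 fold change of -0.53 (SE 0.24) that did not pass the test. Of 15 hepatoma markers, KRT8, KRT18 and SERPINA1 were listed, while AFP, ALB and 10 more were not among the listed transcripts, all of which exceeded 0.5 FPKM somewhere. Of 6 fibroblast markers 5 were listed, COL3A1 at 55.8 to 63.6 FPKM, and of 5 leukocyte markers only CD68. Their summed FPKM was 71.9 to 79.6 for fibroblast and 44.1 to 52.3 for leukocyte markers, with overlapping groups, and none of 4 endothelial markers was listed. The fibroblast marker LUM was at 7.92 and 7.04 FPKM in shCtrl against 2.73 and 2.88 FPKM in shKIAA1429, and its part in the results was not tested.

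To ask whether translation factor mRNAs differed with KIAA1429 knockdown, FPKM were summed per gene and log2(FPKM + 1) was compared with limma over the 11657 genes that reached 1 FPKM in 2 or more libraries. Of the 62 members, 60 were tested, while EEF1AKMT2 and EIF5AL1 were too low. No translation factor gene passed an adjusted p under 0.05 with a log2 fold change over 1 in size (0 of 60), and 0% of all genes did. The smallest adjusted p of a member was 0.838 by limma. At an unadjusted p under 0.05 stood 3 members, EEF1A1, EEF1A2 and EIF5A2, against 5.63% of all genes. Fold changes are on the log2(FPKM + 1) scale, which understates the change of low genes. They ran from -0.48 to 0.70 in the members, and 44 of 60 (73.3%) lay within 0.25 of 0 where 73.5% of all genes did. A smaller share of members was higher in shKIAA1429 (25 of 60, 41.7%) than of all genes (48.1%), and the medians were -0.031 and -0.0083. Both shKIAA1429 values lay above both shCtrl values in 10 members (16.7%) beside 16.9% of all genes, and below them in 9 members (15%) beside 16.7% of all genes. With 2 libraries against 2, an exact permutation test of a single gene cannot go below p = 0.333.

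**Figure D1:**
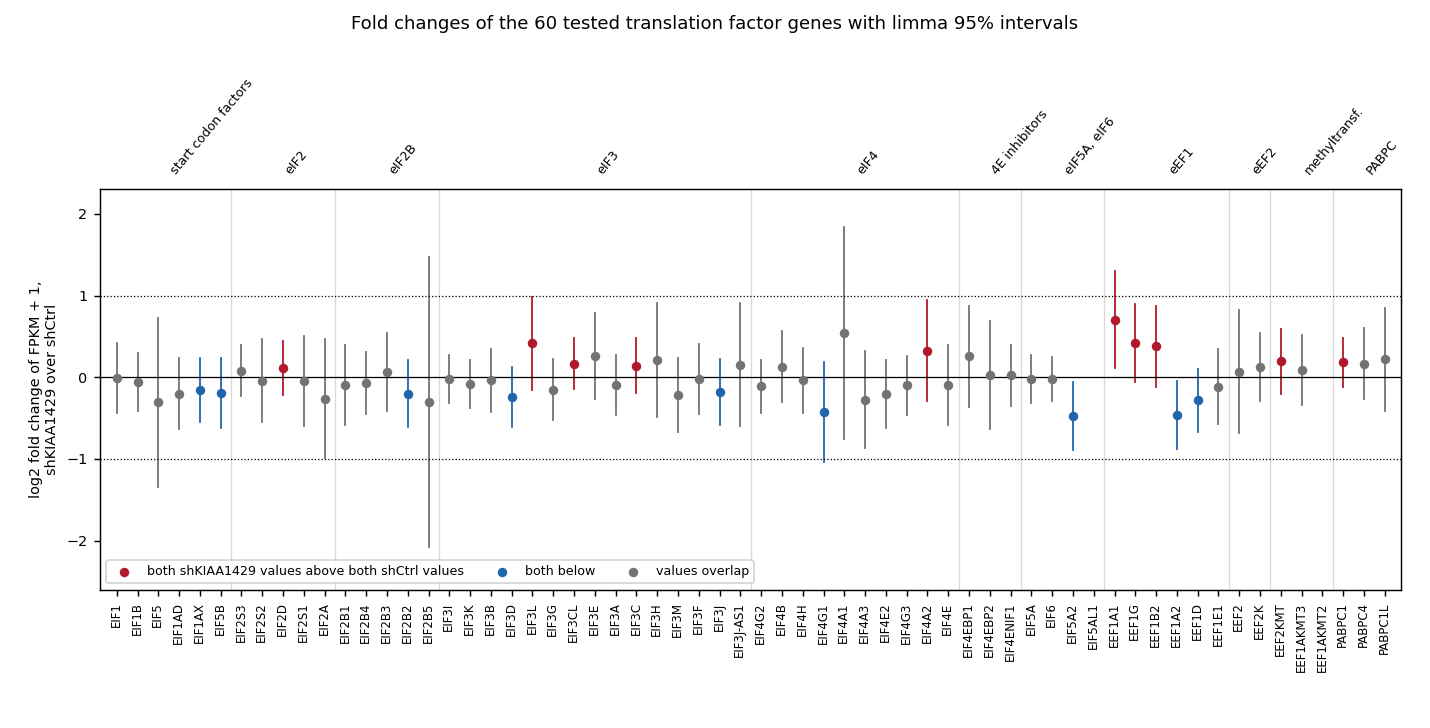
Log2 fold changes of the 60 tested members (y axis, log2 of FPKM + 1, shKIAA1429 over shCtrl), grouped by complex; points are limma estimates, bars their 95% intervals, dotted lines a log2 fold change of 1 either way, and colour says whether the 2 values of each group overlap. No estimate reaches the dotted lines, and EEF1A1 has the highest estimate.

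FPKM can be compared between genes because it is divided by length. Mean levels ran from 0.507 to 1099 FPKM, with 19 genes over 100 FPKM, 29 between 10 and 100, and 14 under 10. The order was led by EEF2 (1099 FPKM), EEF1A1 (723 FPKM), EIF5A (476 FPKM), EEF1G (377 FPKM) and PABPC1 (316 FPKM), followed by EIF6 (199 FPKM). The ranges of neighbours in this order overlapped for EEF2 and EEF1A1 and for EEF1G and PABPC1. The first 5 took 46.1% and 47.3% of the members' FPKM in shCtrl against 52.3% and 51.1% in shKIAA1429. EIF4E, the cap-binding protein, was the lowest of its family at 2.995 to 4.07 FPKM, while its inhibitor EIF4EBP1 stood at 99.1 to 165 FPKM.

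**Figure D2:**
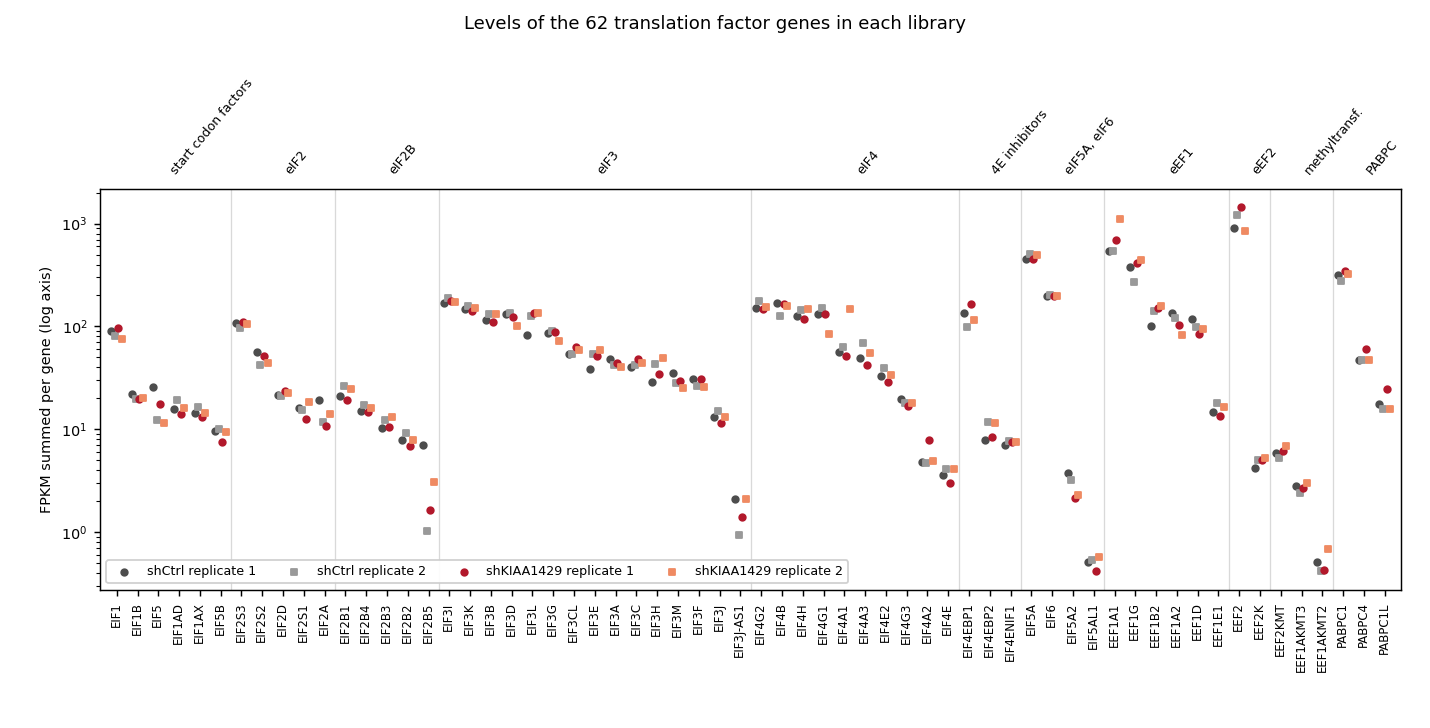
FPKM summed per gene (y axis, log scale) of all 62 members, grouped by complex and ordered by mean level within it; each gene has 1 point per library. Circles are replicates 1, squares replicates 2, grey shCtrl and red to orange shKIAA1429. EEF2 and EEF1A1 head the plot, and EEF1AKMT2 and EIF5AL1 stand at its foot under 1 FPKM.

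The factors that read the start codon and join the subunits had log2 fold changes below 0, 0 of 6 being higher on that scale and 0 of 6 called, with a median of -0.18. EIF1, which keeps the scanning ribosome from near-cognate codons, was at 90.5 and 81.2 FPKM in shCtrl against 96.2 and 75.7 FPKM in shKIAA1429. Its groups overlapped fully, with means of 85.87 and 85.92 FPKM, and its log2 fold change of -0.0072 turned to 0.0044 with upper quartile scaling. EIF5, which triggers GTP hydrolysis by eIF2, was at 25.9 and 12.2 FPKM in shCtrl against 17.6 and 11.5 FPKM in shKIAA1429, with a log2 fold change of -0.31 (SE 0.40). The fold change became 0.20 without shCtrl replicate 1, the highest of its 4 libraries. EIF1AX, the X-linked eIF1A, and EIF5B, the GTPase of subunit joining, lay below both shCtrl values in both shKIAA1429 libraries, by log2 fold changes of -0.16 and -0.19. EIF1B and EIF1AD, a protein with an eIF1A-like domain, had overlapping groups.

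Of the eIF2 list, 2 of 5 genes were higher, 0 of 5 were called, and the median log2 fold change was -0.041. EIF2S3, the gamma subunit that binds GTP and the initiator tRNA, was the most abundant at 107 and 97.3 FPKM in shCtrl against 110.5 and 105 FPKM in shKIAA1429. Its log2 fold change was 0.079 (SE 0.12), within the spread of the shCtrl libraries. EIF2S1, the alpha subunit that stress kinases phosphorylate, ranged from 12.5 to 18.2 FPKM with both extremes in shKIAA1429. EIF2D, an eIF2-independent tRNA delivery factor, was at 21.3 and 21.2 FPKM in shCtrl against 23.4 and 22.7 FPKM in shKIAA1429, without overlap but with a log2 fold change of only 0.11 (SE 0.13). For eIF2B, the exchange factor that reloads eIF2 with GTP, 1 of 5 subunits was higher and 0 of 5 were called, with a median of -0.0997. EIF2B1 led it with 21.0 and 26.1 FPKM in shCtrl against 19.4 and 24.4 FPKM in shKIAA1429. EIF2B5, the catalytic subunit, varied most among the libraries, at 7.04 and 1.02 FPKM in shCtrl against 1.62 and 3.06 FPKM in shKIAA1429.

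The eIF3 scaffold had 14 listed members of which 5 were higher, 0 were called, and the median log2 fold change was -0.031. Their summed FPKM was 1023 and 1134 in shCtrl and 1086 and 1079 in shKIAA1429, so the sums of shKIAA1429 lay within those of shCtrl. EIF3I, a propeller subunit, was the most abundant at 168 and 187 FPKM in shCtrl against 177 and 173 FPKM in shKIAA1429. EIF3L was at 82.9 and 125.4 FPKM in shCtrl against 136 and 136 FPKM in shKIAA1429, with a log2 fold change of 0.42 (SE 0.22). shCtrl replicate 1 stood apart, the other 3 libraries lying between 125.4 and 136 FPKM, and without it the fold change was 0.12. EIF3D, a subunit that can itself bind the cap, had the lowest fold change of the complex, -0.25 (SE 0.14), at 131 and 134 FPKM in shCtrl against 123 and 101 FPKM in shKIAA1429. EIF3C and its near-identical copy EIF3CL were both slightly higher in both shKIAA1429 libraries. How reads shared between these paralogs were assigned is not given, so their split is uncertain.

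The eIF4 list had 3 of 10 members higher, 0 called, and a median log2 fold change of -0.098. EIF4G1, the large scaffold of eIF4F and a gene the study listed, lies at chr3:184032283-184053146 on the plus strand of GRCh37. Its summed FPKM stood at 133 and 152 in shCtrl against 131 and 84.6 in shKIAA1429, giving a log2 fold change of -0.43 (SE 0.24). Both shKIAA1429 values were below both shCtrl values, but replicate 1 by only a small margin, and without shKIAA1429 replicate 1 or 2 the fold change was -0.74 or -0.11. EIF4G2, a related scaffold that does not bind eIF4E, was the most abundant at 153 and 176 FPKM in shCtrl against 147 and 156 FPKM in shKIAA1429. EIF4A1, the main helicase, was at 56.5 and 63.5 FPKM in shCtrl against 51.4 and 149 FPKM in shKIAA1429. Its log2 fold change of 0.54 (SE 0.50) came from shKIAA1429 replicate 2, without which it was -0.22. EIF4A1 overlaps the readthrough gene SENP3-EIF4A1 on the same strand, and reads of both cannot be told apart here. EIF4A2, the second helicase, was at 4.83 and 4.69 FPKM in shCtrl against 7.85 and 4.85 FPKM in shKIAA1429, a difference carried by replicate 1, without which the log2 fold change of 0.32 became 0.025.

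The 3 listed inhibitors of eIF4E were each higher on average, with 0 called and a median log2 fold change of 0.027. EIF4EBP1, the mTOR-controlled repressor of cap binding, was at 136 and 99.1 FPKM in shCtrl against 165 and 117 FPKM in shKIAA1429, with overlapping groups. Of EIF5A, EIF5A2 and EIF6, none was higher and the median was -0.023. EIF5A, which eases the ribosome through difficult peptide bonds and carries hypusine, was at 450.4 and 510 FPKM in shCtrl against 453 and 492 FPKM in shKIAA1429. Its low paralog EIF5A2 was at 3.76 and 3.21 FPKM in shCtrl against 2.13 and 2.31 FPKM in shKIAA1429, the lowest fold change of the members at -0.48 (SE 0.16). It is named here after its values were seen, since its mean is under 5 FPKM. EIF6, which keeps ribosomal subunits apart, had values between 196 and 203 FPKM in the 4 libraries.

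The eEF1 complex held the highest fold change of the members, in EEF1A1, and one of the lowest, in EEF1A2. Of its 6 genes, 3 were higher and 3 lower, 0 were called, and the median log2 fold change was 0.13. EEF1A1, the ubiquitous carrier of aminoacyl tRNA, lies at chr6:74199031-74235310 on the minus strand of GRCh37. It stood at 542 and 538 FPKM in shCtrl against 699 and 1111 FPKM in shKIAA1429, or 540 ± 2.89 against 905 ± 291 FPKM (SD, n = 2). Both shKIAA1429 libraries lay above both shCtrl libraries, and they differed from each other far more than the shCtrl libraries did. EEF1A1 had a log2 fold change of 0.70 (SE 0.23), a limma p of 0.029 and an adjusted p of 0.838 over all genes. The fold change was 0.37 without shKIAA1429 replicate 2 and 1.04 without shKIAA1429 replicate 1. EEF1A2, its paralog of muscle and nerve that some tumours express, lay the other way at 136 and 120 FPKM in shCtrl against 103 and 82.7 FPKM in shKIAA1429. The means were 128 ± 11.6 and 92.9 ± 14.5 FPKM (SD, n = 2), with a log2 fold change of -0.47 (SE 0.16), a limma p of 0.034 and an adjusted p of 0.875. The fold change was -0.31 without shKIAA1429 replicate 2. Most of the EEF1A2 sum was EEF1A2-202, which the annotation calls non-stop decay, at 108 and 94.4 FPKM in shCtrl against 80.0 and 64.0 FPKM in shKIAA1429. The canonical EEF1A2-201 was at 28.2 and 25.5 FPKM in shCtrl against 23.2 and 18.7 FPKM in shKIAA1429. Set side by side, EEF1A1 exceeded EEF1A2 in every library.

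The subunits that exchange the nucleotide of eEF1A did not move together either. EEF1G, the gamma subunit, was at 378 and 271 FPKM in shCtrl against 413 and 447 FPKM in shKIAA1429, with a log2 fold change of 0.42 (SE 0.18). EEF1B2, the exchange subunit, was at 99.9 and 141 FPKM in shCtrl against 150.3 and 159 FPKM in shKIAA1429, with 0.38 (SE 0.19). EEF1D, a second exchange subunit, was at 119 and 98.7 FPKM in shCtrl against 84.0 and 94.4 FPKM in shKIAA1429, with -0.28 (SE 0.15). In none of the 3 genes did the groups overlap, and none passed the test. For EEF1D the separation turned on EEF1D-207, at 25.2 FPKM in shCtrl replicate 1 and at 0 in every other library. Without this transcript the EEF1D sum of shCtrl replicate 1 would lie below that of shKIAA1429 replicate 2. Without single libraries the log2 fold changes ran from 0.18 without shCtrl replicate 2 to 0.67 without shCtrl replicate 1 for EEF1G, and from 0.13 without shCtrl replicate 1 to 0.62 without shCtrl replicate 2 for EEF1B2. For EEF1D they ran from -0.42 without shCtrl replicate 2 to -0.15 without shCtrl replicate 1. EEF1E1, a component of the aminoacyl tRNA synthetase complex that overlaps the readthrough gene EEF1E1-BLOC1S5, had overlapping groups.

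EEF2, which translocates the ribosome, was at 908 and 1209 FPKM in shCtrl against 1437 and 842 FPKM in shKIAA1429. The highest and the lowest value both came from shKIAA1429, the log2 fold change was 0.070 (SE 0.29), and it turned to -0.32 without shKIAA1429 replicate 1. Its inhibitory kinase EEF2K ranged from 4.18 to 5.203 FPKM with overlapping groups. The methyltransferase EEF2KMT, which modifies eEF2, was at 5.86 and 5.28 FPKM in shCtrl against 6.17 and 6.90 FPKM in shKIAA1429, with a log2 fold change of 0.20 (SE 0.15). Of the methyltransferase list, 2 genes were tested, both higher on average and 0 called.

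The 3 listed poly(A) binding proteins were higher on average, with 0 called and a median log2 fold change of 0.18. PABPC1, the main cytoplasmic form, was at 315 and 277 FPKM in shCtrl against 347 and 325 FPKM in shKIAA1429, without overlap, and had a log2 fold change of 0.18 (SE 0.12). PABPC4 and PABPC1L had 1 high library each, shKIAA1429 replicate 1, at 60.1 and 24.6 FPKM. Among the known TOP mRNAs on the list, 8 of 10 were higher, 0 were called, and the median was 0.20 beside -0.031 for the members. Their summed FPKM was 2630 and 2785 in shCtrl and 3410 and 3268 in shKIAA1429. The list was written with earlier results of these data known, so its direction is a description. It shares its leading genes, EEF1A1, EEF2 and EEF1G, with the counts given above. Among members with a TOP-like start in the promoter table, 8 of 16 were higher with a median of 0.0012, and among those without it 7 of 29 with a median of -0.055. This split differs from the list of known TOP mRNAs. Of that list, EEF1A1, EEF1B2, EEF2, EIF3F and EIF4B were among the members with the start, while PABPC1, EEF1D, EEF1G, EIF3E and EIF3H were not.

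Single transcripts were then compared, since the files give FPKM per transcript. Of the 303 transcripts, 255 were annotated as protein coding, 82 had an incomplete start or end, and 212 held an exon junction that no other listed transcript of the gene had. No transcript of the 234 tested passed both thresholds by limma, and 0% of all transcripts did. At an unadjusted p under 0.05 stood 16 transcripts (6.84%), against 6.28% of all, and the smallest adjusted p was 0.114. A log2 fold change over 1 in size, with no test, was seen in 25 transcripts (10.7%), 12 higher and 13 lower, against 7.23% of all transcripts. No member gene reached that size, and only 1.07% of all genes did.

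The make-up of each gene was tested with limma's diffSplice, which sets each transcript against the others of its gene. Of 221 transcripts, 4 passed an adjusted p under 0.05, while 2.08% of all transcripts did. They were EIF4ENIF1-201 and EIF4ENIF1-206 (adjusted p = 0.0055 each by limma), EIF2A-214 (0.029) and EIF4G1-221 (0.040). The calls in EIF4ENIF1 are a single contrast, because the gene has only these 2 listed transcripts. EIF4ENIF1-206 and EIF4G1-221 reached 1 FPKM only in shKIAA1429, where they were high, so they were tested only through that group. EIF4ENIF1-201 entered the usage test only because EIF4ENIF1-206 did. The calls in EIF4ENIF1 and EIF4G1 are therefore descriptions. diffSplice shares a spread among the transcripts of a gene, and in a check with known answers it called more unchanged transcripts than its threshold allows. That check drew each transcript independently of the others of its gene, so the error rate need not hold for these data. A test of the log2 ratio of a transcript to the rest of its gene, with a spread for each transcript and chosen after the data were seen, called 0 of the 221 and 0% of all transcripts. In that test 12 had an unadjusted p under 0.05, and the smallest adjusted p was 0.129; in the same check it missed changes of the size examined. The number past diffSplice moved with the setting, for the members and for all transcripts, of which 409 passed as reported. With the replicate number as a block 2 members passed, beside 302 of all transcripts. Where each library had to reach 1 FPKM, 0 members passed, beside 52 of all transcripts. That filter removed EIF4ENIF1-206, EIF4G1-221 and EIF2A-214, and left EIF4ENIF1-201 without a transcript to be set against. The 4 calls could therefore not recur there. The member count also moved both down and up when single libraries were left out, in fits that leave 1 library in a group. Shares of the gene that did not overlap between the groups were seen for 89 of 271 transcripts (32.8%), beside 35.0% of all transcripts.

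EIF4ENIF1, a shuttling protein that brings eIF4E into the nucleus and represses translation, kept its gene sum at 7.001 to 7.71 FPKM in all 4 libraries. EIF4ENIF1-206 was at 0.039 and 0.030 FPKM in shCtrl against 2.09 and 2.28 FPKM in shKIAA1429, or 0.55% and 0.39% against 28.1% and 30.2% of the gene. EIF4ENIF1-201 was at 6.96 and 7.68 FPKM in shCtrl against 5.34 and 5.26 FPKM in shKIAA1429. The replicates of each group lay close together, and the share of EIF4ENIF1-206 was higher in both shKIAA1429 libraries. In the ratio test the log2 difference was 2.02, with an adjusted p of 0.201. Both transcripts hold the same 2955 coding bases and differ in the first exons shown above, with 149 bases of their own in EIF4ENIF1-201 and 197 in EIF4ENIF1-206. Another gene, SFI1, overlaps EIF4ENIF1 on the opposite strand.

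EIF3D held the transcript whose share was higher in shKIAA1429 by the widest margin of the members, with no usage call. EIF3D-206 was at 49.5 and 50.8 FPKM in shCtrl against 8.39 and 10.6 FPKM in shKIAA1429, which was 37.9% and 37.9% of the gene against 6.82% and 10.5%. EIF3D-201 was at 10.98 and 13.6 FPKM in shCtrl against 29.5 and 73.2 FPKM in shKIAA1429, or 8.41% and 10.1% against 24.0% and 72.5%. The canonical EIF3D-201 thus stood higher and EIF3D-206, annotated with an incomplete end, lower in both shKIAA1429 libraries. EIF3D-203, with the alternative first exon, was at 68.4 and 67.6 FPKM in shCtrl against 82.8 and 14.5 FPKM in shKIAA1429, so that the shKIAA1429 libraries differed from each other in which first exon prevailed. For EIF3D-206 the fold change on the log2 scale was -2.30 (SE 0.17), with a p from limma of 0.00025, an adjusted p of 0.121 and a usage adjusted p of 0.107. For EIF3D-201 the values were 1.85 (SE 0.49) on the log2 scale and a usage adjusted p of 0.131.

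EIF4G1 had 16 listed transcripts. EIF4G1-207 was listed at 0 in both shCtrl libraries and at 9.40 and 7.20 FPKM in shKIAA1429, the single member transcript under 0.1 FPKM in one group and at least 5 FPKM in the other, of 38 such transcripts in all. EIF4G1-221, also listed at 0 in both shCtrl libraries, was at 44.5 and 4.93 FPKM in shKIAA1429, with a log2 difference of 4.83 and an adjusted p of 0.454 in the ratio test. EIF4G1-224 was at 71.3 and 80.4 FPKM in shCtrl against 49.3 and 0.016 FPKM in shKIAA1429, so that it took 53.6% and 53.1% of the gene against 37.6% and 0.019%. All 3 differed in share without overlap, but shKIAA1429 replicates 1 and 2 were themselves unlike. EIF4G1-207 and EIF4G1-221 had 0 bases and 0 junctions that no other listed transcript of the gene held, so no base or junction marks them alone. EIF4G1-224, annotated with an incomplete end, held 45 bases and the junction shown above.

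EIF2A, which can bring the initiator tRNA to some mRNAs without eIF2, had a log2 fold change of -0.26 (SE 0.28) as a gene. EIF2A-214, which lacks a coding exon, was at 9.52 and 4.84 FPKM in shCtrl against 0.602 and 1.97 FPKM in shKIAA1429, or 49.3% and 41.5% of the gene against 5.57% and 13.99%. The canonical EIF2A-203 was at 3.45 and 3.38 FPKM in shCtrl against 6.91 and 7.78 FPKM in shKIAA1429, or 17.9% and 29.0% against 64.0% and 55.2%. Both shares stood apart between the groups. In the ratio test EIF2A-214 had a log2 difference of -2.54 and an adjusted p of 0.383, in a range of sizes at which that test made no calls in the check with known answers. EIF2A-203 had a usage adjusted p of 0.120. PABPC4-204, named after its values were seen, was at 3.81 and 2.77 FPKM in shCtrl against 9.60 and 7.82 FPKM in shKIAA1429, with a log2 fold change of 1.18 (SE 0.23) and an adjusted p of 0.419.

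**Figure D3:**
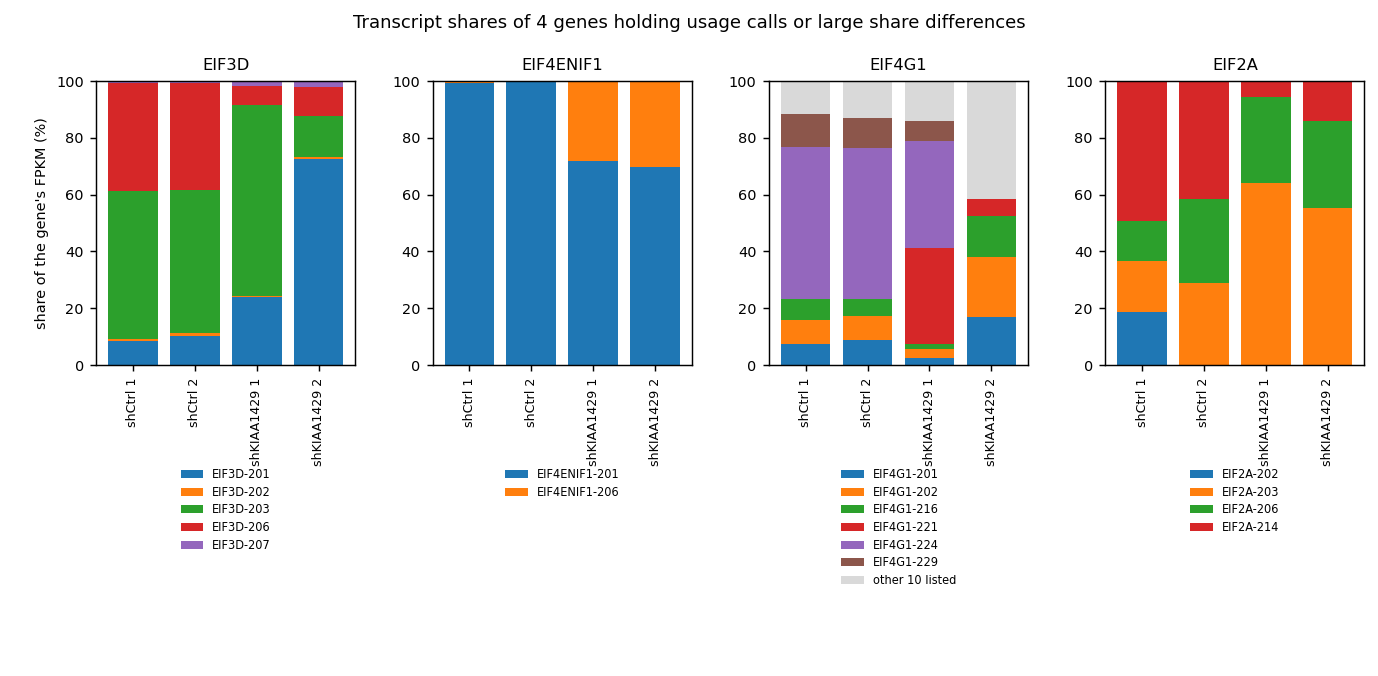
Share of each gene's FPKM (y axis, percent) taken by its transcripts in the 4 libraries (x axis, group and replicate number); grey gathers the transcripts beyond the leading 6. EIF4ENIF1-206 holds under 1% in shCtrl and 28.1% and 30.2% in shKIAA1429, and EIF3D-206 holds 37.9% in shCtrl and at most 10.5% in shKIAA1429.

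Other shares turned on 1 library. EEF1A1-203 was at 247 and 302 FPKM in shCtrl against 398 and 1024 FPKM in shKIAA1429, and took 45.6% and 56.2% of EEF1A1 against 56.9% and 92.2%. EEF1A1-210 stood at 134 and 92.2 FPKM in shCtrl, at 143 FPKM in shKIAA1429 replicate 1 and at 0 in replicate 2. The high EEF1A1 of shKIAA1429 replicate 2 thus lay in EEF1A1-203, while EEF1A1-201 and EEF1A1-202 were lower there than in the other 3 libraries. EIF4A1-235, which the annotation calls a retained intron, was at 0.965 and 1.90 FPKM in shCtrl, at 2.70 FPKM in shKIAA1429 replicate 1 and at 38.2 FPKM in replicate 2. EEF2-207, annotated with an incomplete start and 352 bases long, was at 6.48 and 414 FPKM in shCtrl against 472 and 6.89 FPKM in shKIAA1429. It was high in 1 library of each group, and EEF2-201, the main transcript, kept to 792 to 964 FPKM.

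In several genes the make-up of shCtrl replicate 1 stood apart from the other 3 libraries. EIF3L-202 took 42.8% of EIF3L there and 77.5% to 80.2% elsewhere, and EIF1AD-201 took 3.37% of EIF1AD there and 51.5% to 58.4% elsewhere. EEF1B2-202 was at 9.99 FPKM there and at 109 to 129.99 FPKM elsewhere. EIF5-205 took 87.3% and 48.0% of EIF5 in shCtrl and 36.6% and 17.4% in shKIAA1429, the largest difference in mean share among the members, and no test was passed. Between the shCtrl replicates 16 of 271 transcripts differed in share by over 20 percentage points, and between the shKIAA1429 replicates 20 did. Between single libraries of different groups it was 17 to 25, a range that holds the count within shKIAA1429. Over the 10 largest non-overlapping differences in mean share, the smallest was 19.9 points, and the next outside was 17.1 points.

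**Figure D4:**
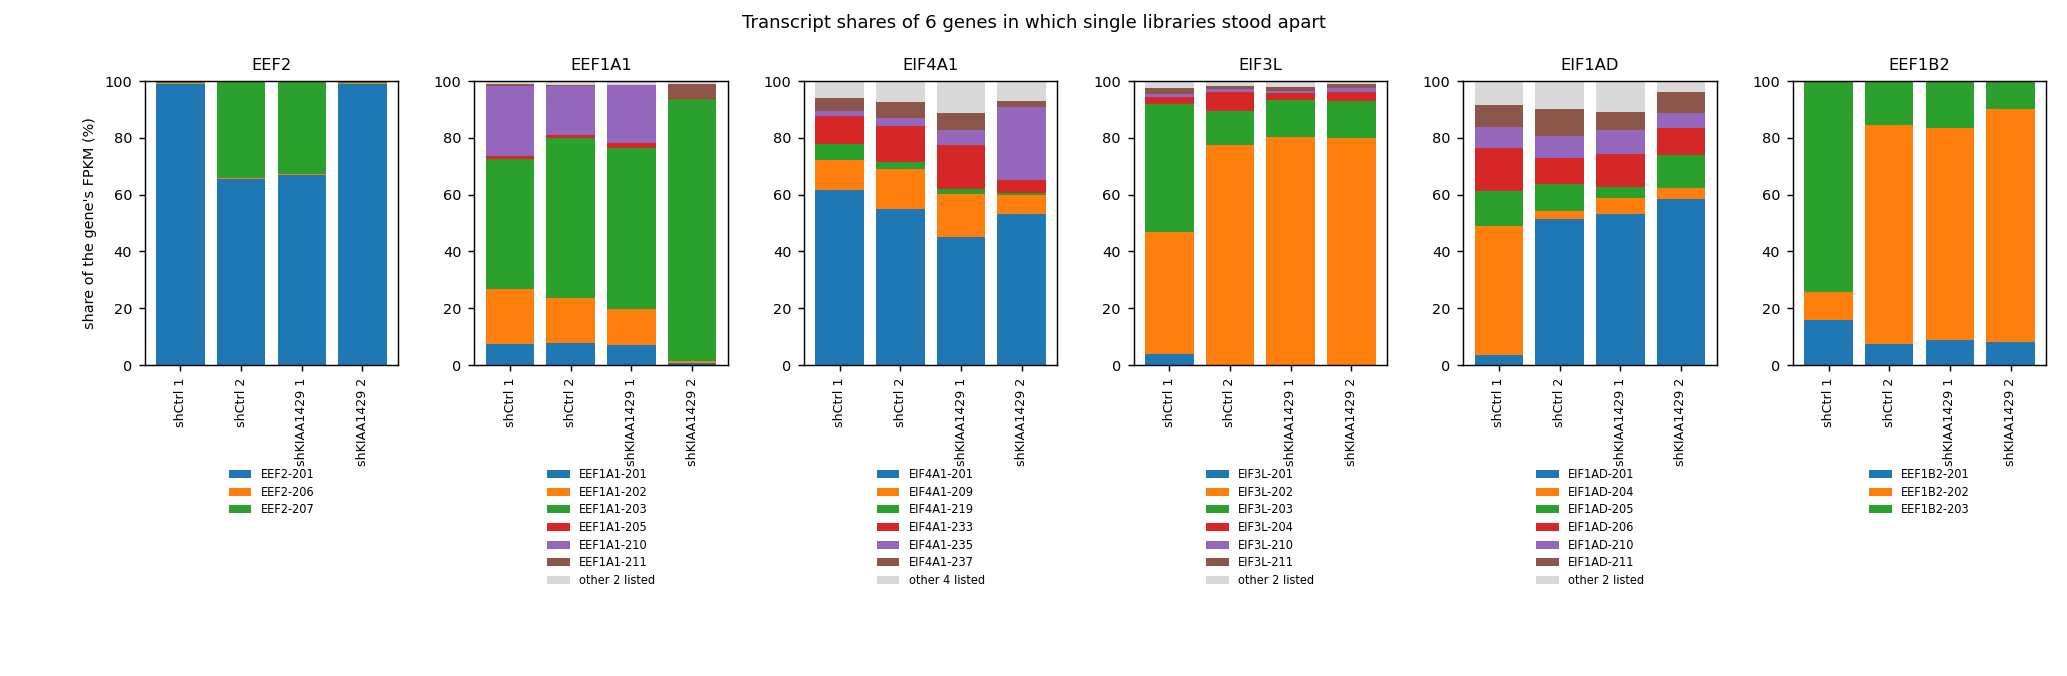
Share of each gene's FPKM (y axis, percent) taken by its transcripts in the 4 libraries (x axis, group and replicate number), for 6 members; grey gathers the transcripts beyond the leading 6. EEF2-207 is prominent in shCtrl replicate 2 and shKIAA1429 replicate 1, EEF1A1-203 takes 92.2% in shKIAA1429 replicate 2, and shCtrl replicate 1 stands apart in EIF3L, EIF1AD and EEF1B2.

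Genes that control translation but fall outside the rule were read from a fixed list, with 27 of 29 listed and tested. Of these 14 were higher, 13 lower and 0 called, with a median log2 fold change of 0.0064. LARP1, which binds TOP mRNAs, was the most abundant at 98.7 and 94.3 FPKM in shCtrl against 101 and 98.5 FPKM in shKIAA1429. Its fold change of 0.047 became -0.0053 with the library sums made equal. PAIP1, a PABPC partner named after its values were seen, was at 10.7 and 8.96 FPKM in shCtrl against 15.7 and 16.3 FPKM in shKIAA1429. It had a log2 fold change of 0.65 (SE 0.16), a limma p of 0.0089 and an adjusted p of 0.635 over all genes.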

How the data were processed

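Total RNA of 2 shCtrl and 2 shKIAA1429 samples was sequenced, and groups and replicate numbers were taken from the titles. The authors deposited FPKM per annotated transcript, and the tool that gave these values is not given in the sources used here. The submitters' processing notes name Bowtie2 2.1.0 and hg19, which is GRCh37. Gene symbols differed between the files in 108 transcript rows, where some had become dates, and were restored by identifier. Members and lists were chosen with earlier results of these data known.

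FPKM were summed per gene. log2(FPKM + 1) was then fitted by group in R 4.3.3 with limma 3.58.1 (lmFit, eBayes with trend, two-sided, Benjamini-Hochberg over all features tested). A feature had to reach 1 FPKM in 2 or more libraries. A call needed an adjusted p under 0.05 and a log2 fold change over 1 in size. The study used the same cutoffs, but with a different test on the numbers of reads per gene. Its list of changed genes and the calls made here are therefore not directly comparable. Usage was tested with diffSplice at an adjusted p under 0.05. Each test was checked on simulated data. The gene test made calls where many genes had been changed at once, which need not carry over to few or small changes, and the transcript test only at the largest size. Neither count of 0 shows that the members were alike. diffSplice exceeded its error rate there, with the transcripts of a gene drawn independently of each other.

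Genes were named when the study listed them, when most abundant in a list, or when among the 10 largest fold changes with a mean of at least 5 FPKM. Transcripts were named when under 0.1 FPKM in one group and at least 5 in the other, or when among the 10 largest non-overlapping differences in share in genes with a mean of at least 10 FPKM. Others are marked as chosen after their values were seen. Of the member transcripts 296 of 303 matched GENCODE 44 and 202 had the same span. Transcript structure was taken from it. Strand handling and the treatment of reads shared by several genes are not given, so paralogs, overlapping and antisense genes stay uncertain. Alternatives were upper quartile scaling, equal sums, 2 other filters, a block on the replicate number, a pseudocount of 0.1, each library left out in turn, the adjusted p alone and protein coding transcripts only. Python 3.11.15 and matplotlib 3.10.9 made the figures.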

Additional observations from a re-analysis of the deposited data

How the results depend on the processing

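Counts of called genes and of called transcripts were 0 under every alternative run, and the median log2 fold change of the genes ran from -0.083 (equal sums, where that of all genes was -0.053) to -0.019 (upper quartile scaling). Leaving out a library moved it between -0.057 and -0.0020. The number of transcripts past the usage test was the least steady. It was 4 as reported, 3 with upper quartile scaling or no filter, and 6 with a pseudocount of 0.1. With the ratio to the rest of the gene, a setting added after the data were seen, it was 0. Where each sample had to reach 1 FPKM, which took the transcripts called as reported out of the test, the number was 0. Without single libraries it was 0 to 17, namely 0 without shCtrl replicate 1, 17 without shKIAA1429 replicate 1 and 13 without shKIAA1429 replicate 2. With the replicate number as a block it was 2, and no call of a gene or transcript changed. Same-numbered libraries deviated together with a correlation of 0.324 over all genes and 0.079 over the members. With 2 pairs, and no label of a shared batch, the number was not taken as a pairing.

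Of 242 alternative values of 22 named genes, 229 kept their direction. Those that did not were near 0 or turned on a single library. EIF1 was at 0.0044 with upper quartile scaling, and LARP1 at -0.0053 with equal sums. Over the fits without single libraries, EIF1 ran from -0.18 to 0.16, EEF2 from -0.32 to 0.46, EIF5 from -0.82 to 0.20, EIF2B1 from -0.26 to 0.057, EIF3I from -0.10 to 0.053, EIF5A from -0.11 to 0.067 and EIF4A1 from -0.22 to 1.30. The cause was not tested beyond the libraries left out. Where a library was left out, the lone one of its group was assumed to vary like the others. Depth is unknown, so no limit of detection can be set.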

Other observations

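Beyond the transcripts chosen by rule, others had an unadjusted limma p under 0.05 and are given here as values, after they were seen. EEF1D-202, of the exchange subunit, was at 13.1 and 11.5 FPKM in shCtrl against 1.55 and 4.77 FPKM in shKIAA1429. EIF3B-204, of the large eIF3 scaffold subunit, was at 4.99 and 3.93 FPKM in shCtrl against 1.45 and 1.95 FPKM in shKIAA1429. PABPC1-219 was at 11.5 and 18.2 FPKM in shCtrl against 27.9 and 32.3 FPKM in shKIAA1429. PABPC1L-201 was at 3.28 and 3.24 FPKM in shCtrl against 0 and 1.16 FPKM in shKIAA1429. In each of these the groups did not overlap, and in none did the adjusted p pass 0.05.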
